A study of Homo sapiens with 12 samples.

Results

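Human RPE1 cells sorted at a 4N DNA content after siRNA against Anillin were compared with RPE1 cells sorted at 4N after a control siRNA, across all genes of the deposited expression table. The comparison used 6 of the 12 libraries of the study, 3 biological replicates in each group, chosen by their labels alone. Of 57773 gene identifiers in the table, 38571 had a value above 0 in at least 1 library and 12892 reached 0.5 RPKM (reads per kilobase of gene, scaled to the library total) in at least 3 libraries, and these were tested. RPE1 is an immortalised line from human retinal pigment epithelium that keeps a working p53 pathway. The Anillin 4N and control 4N cells were sorted from cultures that had received their siRNA for 24 hours by lipid transfection and had then been stained for DNA with 2 μg/mL of a Hoechst dye during 60 minutes at 37 °C. The remaining 6 libraries, Anillin 2N and control 2N, held 3 replicates each of the 2N cells and were used to set the 4N values beside them. They also entered the filter and the estimate of the spread behind the tests. Any 3 libraries sufficed, so a gene could pass the filter through 1 group alone. Counts over the tested members of a list can include genes that passed only through control 4N, where they were high. The control siRNA is labelled Random, no siRNA sequence is given in the sources used here, and all libraries come from 1 cell line. A 4N gate takes G2 and mitotic cells of a diploid culture as well as G1 cells with a doubled genome, and the composition of the sorted cells was not measured in these files.

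Anillin is a scaffold of the contractile ring that binds actin, myosin II, septins and the GTPase RhoA, and cells that lose it begin to cleave but often fail to finish cytokinesis, which leaves 1 cell with a doubled genome. Genes of mitosis are switched on late in the cell cycle by the MuvB complex with B-MYB and FOXM1, which acts through the cell cycle homology region (CHR) of their promoters, and genes of DNA replication are switched on earlier by E2F factors. When p53 is active it induces p21, an inhibitor of cyclin-dependent kinases, and both classes of genes are then held down through RB-family proteins. In bulk libraries such as these, fewer cells of a cell cycle phase and less RNA per cell cannot be told apart.

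The recovered sequencing depth was 17412742 to 38854134 reads in genes for the Anillin 4N libraries and 24943099 to 46356779 for the control 4N libraries. Pearson correlations between the replicates of a group, over the log2 values of the genes tested, lay between 0.981 and 0.992 in the 4 groups. The first principal component held 51.0% of the variance and placed the control 4N libraries (29.3 to 38.7) apart from the Anillin 4N (-14.1 to -11.1), Anillin 2N (-22.5 to -18.8) and control 2N libraries (-6.91 to 4.00). Of 13 pigment epithelium markers only OTX2, KRT8 and KRT18 reached the filter. MITF missed it at 0.129 RPKM in Anillin 4N and 0.114 RPKM in control 4N. In recovered reads MITF averaged 739 in Anillin 4N and 992 in control 4N, against 1087 and 1252 for OTX2. RPE65, which defines the differentiated tissue, averaged 0.0377 RPKM in Anillin 4N and 0.0195 RPKM in control 4N, and TTR and DCT were at 0 in both groups. Among 24 markers of blood cells, other epithelia, muscle and neurons, CD68, MUC1 and TUBB3 were the 3 that reached the filter, and CD3E and HBB were at 0 in both groups. The summed level of the blood list was 36.1 to 40.5 RPM (reads per library total, scaled) in Anillin 4N and 43.1 to 44.4 RPM in control 4N, and that of the other epithelia was 22.5 to 26.5 RPM in Anillin 4N and 13.6 to 14.9 RPM in control 4N. The summed muscle and neuron list was 192 to 198 RPM in Anillin 4N and 234 to 271 RPM in control 4N. Each of these sums came mostly from 1 gene. In Anillin 4N, CD68 averaged 944 recovered reads and LYZ, the next of the blood list, 19.3. MUC1 averaged 569 reads and KRT19 8.33 there, and TUBB3 4544 and SNAP25 209. The differences between the groups in these sums are thus mainly those of CD68, MUC1 and TUBB3. The part of such cells in the results was not tested.

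ANLN, the gene targeted by the siRNA, was at 0.0989, 0.0855 and 0.0700 RPKM in the 3 Anillin 4N libraries, against 8.42, 7.45 and 7.98 RPKM in the control 4N libraries. In the 2N cells it was at 0.0850, 0.0582 and 0.0395 RPKM after Anillin siRNA, against 1.88, 1.25 and 1.66 RPKM after control siRNA. All 6 libraries labelled Anillin were thus low and all 6 control libraries high, as the labels have it. The ratio of the group means at 4N was 0.0107, and the change on the log2(RPKM + 0.5) scale, which understates folds of low values, was -3.85 ± 0.10 (SE, adjusted p = 1.7e-08, limma-trend).

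Most of the differences called were small. At an adjusted p below 0.05, 2582 genes were higher in Anillin 4N (20.0% of those tested) and 4056 were lower (31.5%). Only 82 genes were at least 2-fold higher, against 335 at least 2-fold lower, and at 4-fold the counts were 3 and 64. These fold counts depended on the method, being 713 higher and 812 lower at 2-fold on recovered reads, and 182 higher with a pseudocount of 0.1 and 33 with a pseudocount of 1. The median change was 0.31 among the higher genes, -0.35 among the lower ones and -0.05 over all genes tested, in log2 units. The 3 Anillin 4N libraries lay wholly above the 3 control 4N libraries in 3103 genes (24.1%) and wholly below them in 4685 genes (36.3%). The balance of the calls depended on the scaling, since higher genes made up 38.9% of the calls with the deposited scaling, 52.4% after quantile scaling (3505 higher and 3182 lower) and 49.0% in limma-voom on recovered reads (4914 higher, 21.9% of 22404 genes, and 5119 lower, 22.8%).

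**Figure D1:**
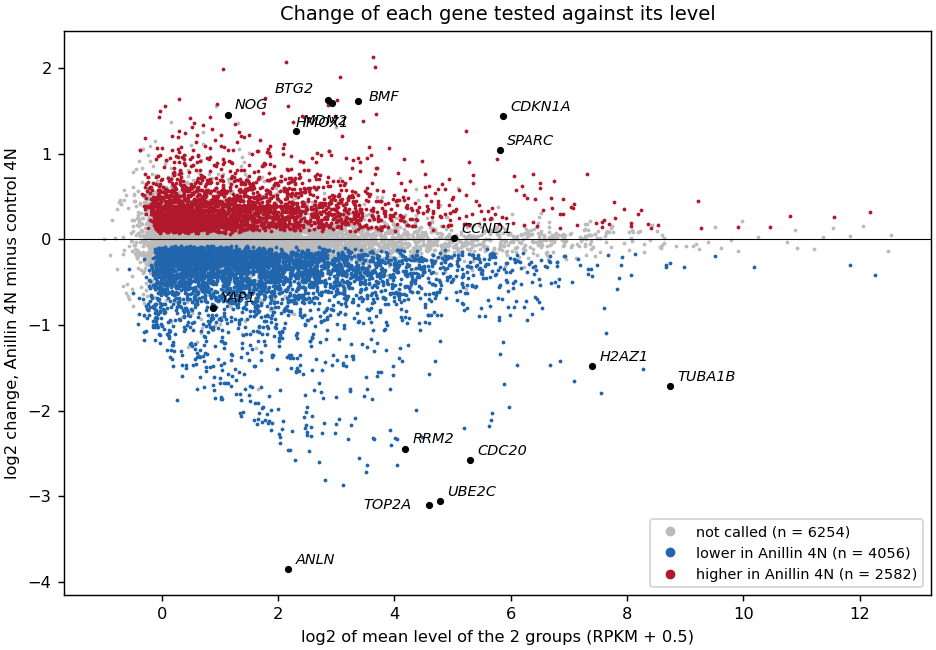
Change of each of the 12892 genes tested (log2, Anillin 4N minus control 4N, vertical) against the log2 mean level of both groups (RPKM + 0.5, horizontal). Red points are the 2582 genes higher in Anillin 4N, blue points the 4056 lower ones and grey points those not called; the falls reach -3.85 at ANLN, while rises of named protein-coding genes reach 1.63 at BTG2.

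The steepest falls were those of genes that run mitosis. All 18 tested members of a list of the CDK1 switch and mitotic kinases were lower in Anillin 4N, with a median log2 change of -2.06. CDK1 itself, the kinase that drives entry into mitosis, was at 1.53, 1.63 and 1.65 RPKM in Anillin 4N, against 16.0, 14.2 and 14.4 RPKM in control 4N, a change of -2.87 ± 0.10. Its partner CCNB1 (cyclin B1) had 4.71, 4.78 and 5.04 RPKM in Anillin 4N, against 28.3, 24.5 and 26.0 RPKM in control 4N. Every Anillin 4N value of both genes lay far under every control 4N value. NEK2, a kinase of centrosome separation (-2.81 ± 0.10), BIRC5, the survivin subunit of the chromosomal passenger complex (-2.72 ± 0.14), AURKA (-2.24 ± 0.08), PLK1 (-2.16 ± 0.10) and AURKB (-2.16) fell about as far. WEE1, which holds CDK1 inactive until G2 ends, fell least among the 18, to a mean of 6.72 RPKM in Anillin 4N, against 8.54 RPKM in control 4N (-0.32 ± 0.08), and its call was lost under quantile scaling.

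The parts of the spindle went the same way. All 11 tested kinesins of the spindle were lower (median -2.07), among them KIF20A, the motor that carries the passenger complex to the midzone (-2.31 ± 0.13), KIF23 of centralspindlin (-2.28 ± 0.10) and KIF11, which pushes the spindle poles apart (-2.13). Among microtubule proteins of the spindle 14 of 15 fell (median -2.15), led by PRC1, which bundles midzone microtubules, with 2.59, 2.48 and 2.61 RPKM in Anillin 4N, against 15.9, 13.7 and 15.2 RPKM in control 4N. The exception was NUMA1, a pole protein that interphase nuclei also hold, at a mean of 3.69 RPKM in Anillin 4N and 3.51 RPKM in control 4N (0.06, not called). Of the tubulins themselves 12 of 13 were lower (median -0.93), with TUBB4B at -1.79 ± 0.13 and TUBA1B at -1.72 ± 0.14; TUBE1, a centriolar epsilon-tubulin, was not called (0.05). Tubulin genes resemble each other and have pseudogenes, so reads may be split among them.

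Chromosome structure and attachment genes followed. All 21 tested genes of condensin, topoisomerase II, cohesin and their regulators were lower (median -1.41). TOP2A, which untangles sister DNA, was at 4.58, 4.30 and 4.67 RPKM in Anillin 4N, against 44.0, 41.3 and 42.5 RPKM in control 4N (-3.10 ± 0.07), and its isoform TOP2B, which cells express outside the cycle too, fell by 0.13, a call that quantile scaling removed. MKI67, the proliferation marker that coats mitotic chromosomes, had 4.05, 3.75 and 4.33 RPKM in Anillin 4N, against 29.1, 25.0 and 29.3 RPKM in control 4N. Within the cohesin ring the core subunits SMC1A (-0.93) and SMC3 (-0.65) fell less than its protector SGO1 (-1.46) or its activator CDCA5 (-1.89). Of 28 tested centromere and kinetochore genes 27 were lower (median -1.16), from HJURP, the loader of CENP-A (-2.38 ± 0.10), to CENPT (-0.24), with PMF1 not called. NDC80 (-1.87 ± 0.07) passed the filter through the control 4N libraries alone. On recovered reads the whole list of 32 could be tested, and 31 were lower. The spindle assembly checkpoint lost 11 of 12 (median -1.49), including ZWINT (-2.41), BUB1 (-2.12 ± 0.08) and MAD2L1 (-2.01 ± 0.13), while its silencer MAD2L1BP was not called (-0.16).

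Within the anaphase-promoting complex the regulators and the core differed in size of change. UBE2C, the ubiquitin-conjugating enzyme that feeds it, was at 5.41, 5.06 and 5.79 RPKM in Anillin 4N, against 53.1, 44.7 and 48.6 RPKM in control 4N (-3.06 ± 0.14). The activator CDC20 had 10.8, 10.5 and 11.0 RPKM in Anillin 4N, against 71.3, 60.8 and 68.3 RPKM in control 4N (-2.58 ± 0.15). The second activator FZR1, which works from late mitosis into G1, changed by -1.02, and the core subunits lay between -0.73 for CDC27 and 0.11 for ANAPC2. In total 13 of 15 genes were lower and 1 was higher, ANAPC4, whose rise of 0.10 was lost when single libraries were left out.

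Among genes of the contractile ring and abscission, Anillin's own machinery, 20 of 27 were lower, 2 were higher and the median was -0.25. The genes that cells make for each division fell most, namely CEP55, the midbody scaffold of abscission (-2.60 ± 0.12), the RhoA regulators ARHGAP11A (-2.08), RACGAP1 (-2.04 ± 0.07) and ECT2 (-1.51 ± 0.05), and the kinase CIT (-1.24). The general actomyosin and septin genes moved little. RHOA was at 10.7, 11.3 and 11.5 RPKM in Anillin 4N, against 12.5, 12.1 and 12.2 RPKM in control 4N (-0.14 ± 0.05, adjusted p = 0.048), and under quantile scaling the change was 0.04. MYH9, the main nonmuscle myosin II, was not called (-0.06 ± 0.06), whereas its relative MYH10 fell (-0.40 ± 0.03) and the myosin light chain MYL9 rose (0.26 ± 0.06). SEPTIN11 (-0.44), SEPTIN7 (-0.34), SEPTIN10 (-0.31) and SEPTIN9 (-0.25), filament-forming proteins, were lower. SEPTIN2 was too (-0.15), but turned to 0.02 without a call under quantile scaling. SEPTIN6 was the second higher gene (0.10), a call that was lost when single libraries were left out.

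**Figure D2:**
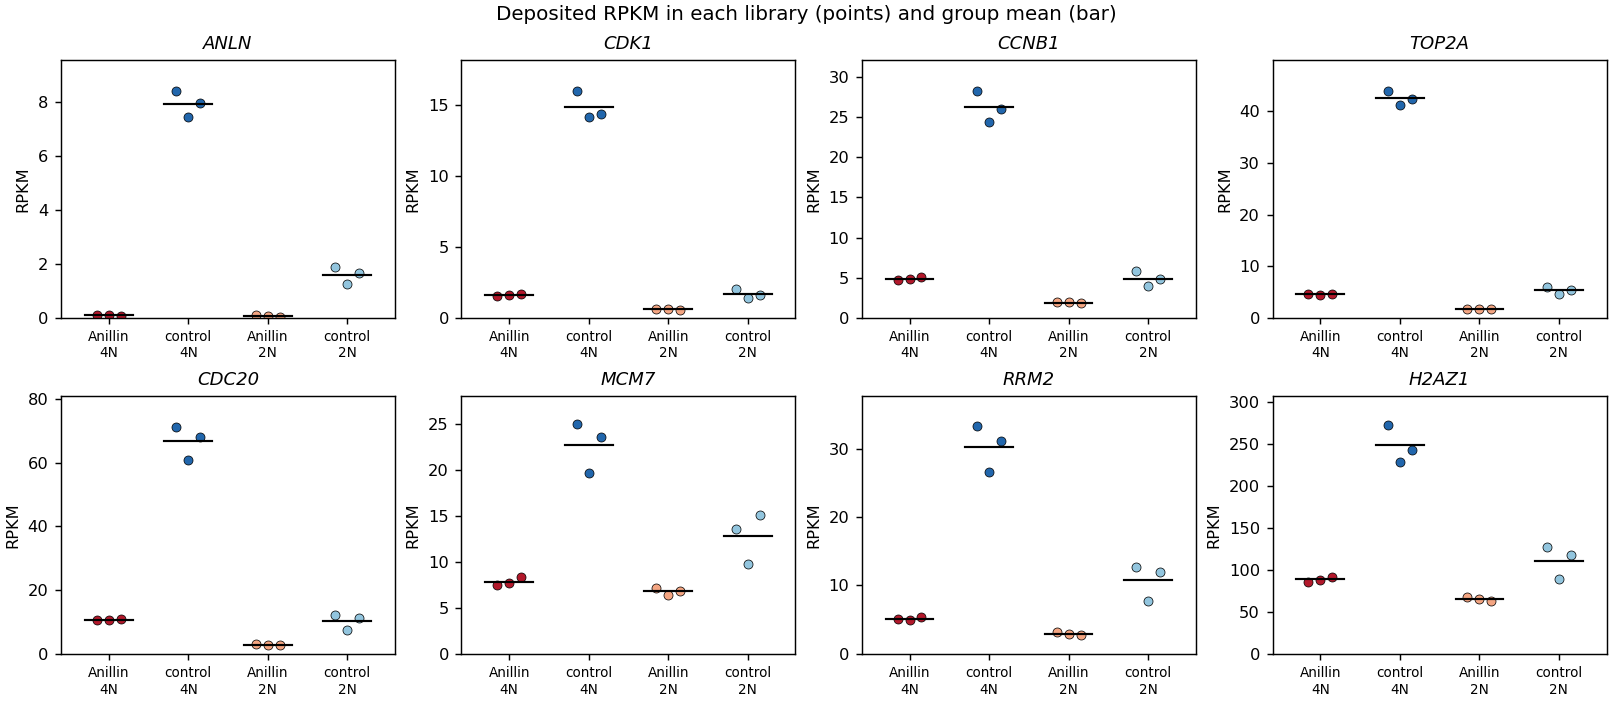
Deposited RPKM of 8 genes that fell, in each library (points) and as group means (bars), for Anillin 4N, control 4N, Anillin 2N and control 2N from left to right; every vertical axis starts at 0. The control 4N libraries stand alone at the top for CDK1, CCNB1, TOP2A and CDC20, at 14.2 to 16.0 RPKM for CDK1, while Anillin 4N sits near the control 2N level.

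The promoters of these genes were read for short motifs, because many of them fell together. The windows came from RefSeq (GRCh38.p14), reached from 250 bases before the start of the gene to 50 bases into it, and existed for 6738 of the protein-coding genes tested. The CHR was searched as TTTGAA, the CCAAT box as CCAAT and an E2F site as TTTGGCGC or TTTCGCGC, each on both strands. A p53 site was searched as 2 adjoining copies of the p53 half-site with at most 2 mismatches, none in the C or G of a copy. Of 194 windows of protein-coding genes at least 2-fold lower in Anillin 4N, 44.8% held a CHR, against 9.84% of 2449 windows of genes lower by under 2-fold, 7.26% of 2533 windows of genes not called and 6.57% of 1537 windows of genes higher by under 2-fold. The 26 windows of genes at least 2-fold higher held it in 3 cases (11.5%). All 27305 windows in the table held it in 15.4%, and those of the protein-coding genes tested in 9.14%. The CCAAT box was found in 65.5% of the windows at least 2-fold lower, 41.3% of those lower by under 2-fold, 37.0% of those not called, 31.9% of those higher by under 2-fold and 30.8% of those at least 2-fold higher, against 35.7% of all windows. Of the 12 spindle kinesins 9 held a CHR, while of 21 replication licensing genes 4.76% held a CHR and 33.3% an E2F site, against 1.18% of all windows. The p53 site was found in none of the 26 windows at least 2-fold higher, 0.33% of those higher by under 2-fold and 0.27% of all windows. It stood in 1 of 10 windows of the p53 feedback list. None of the 8 growth arrest, 9 apoptosis and 14 repair and metabolism windows held it. Bases outside the windows were not searched. A match describes the letters of the window and not a bound site.

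6 of the windows are printed because their genes are among the 15 largest falls and show the range of layouts; capitals mark the CHR (TTTGAA, or TTCAAA on the other strand) and the CCAAT box (CCAAT, or ATTGG on the other strand). Positions count from the start of the gene, which is 0.
TOP2A, chr17:40417847-40418146, minus strand: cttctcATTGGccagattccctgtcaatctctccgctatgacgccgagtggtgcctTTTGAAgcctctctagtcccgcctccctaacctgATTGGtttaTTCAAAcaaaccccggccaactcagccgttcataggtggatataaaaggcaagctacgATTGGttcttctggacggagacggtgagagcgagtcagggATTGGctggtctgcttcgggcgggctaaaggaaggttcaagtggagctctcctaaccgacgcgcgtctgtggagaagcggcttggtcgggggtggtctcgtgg
MKI67, chr10:128126374-128126673, minus strand: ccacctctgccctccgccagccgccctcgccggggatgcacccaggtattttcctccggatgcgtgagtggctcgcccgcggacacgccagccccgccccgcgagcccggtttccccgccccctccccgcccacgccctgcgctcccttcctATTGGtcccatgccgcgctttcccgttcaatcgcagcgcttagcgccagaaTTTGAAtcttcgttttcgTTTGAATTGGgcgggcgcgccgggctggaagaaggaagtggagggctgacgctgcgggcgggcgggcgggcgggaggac
CDC20, chr1:43358731-43359030, plus strand: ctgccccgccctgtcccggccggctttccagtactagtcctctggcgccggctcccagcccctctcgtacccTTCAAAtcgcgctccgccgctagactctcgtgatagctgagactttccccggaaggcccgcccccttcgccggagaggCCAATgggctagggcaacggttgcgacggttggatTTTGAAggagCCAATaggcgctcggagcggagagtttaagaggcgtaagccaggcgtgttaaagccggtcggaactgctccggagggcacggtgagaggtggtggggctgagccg
CDCA8, chr1:37692266-37692565, plus strand: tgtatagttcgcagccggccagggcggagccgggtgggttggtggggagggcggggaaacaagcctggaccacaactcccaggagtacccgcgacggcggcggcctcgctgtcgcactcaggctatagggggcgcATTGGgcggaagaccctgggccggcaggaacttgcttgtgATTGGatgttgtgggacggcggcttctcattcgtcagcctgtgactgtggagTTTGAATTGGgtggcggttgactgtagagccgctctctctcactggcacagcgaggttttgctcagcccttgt
ANLN, chr7:36389612-36389911, plus strand: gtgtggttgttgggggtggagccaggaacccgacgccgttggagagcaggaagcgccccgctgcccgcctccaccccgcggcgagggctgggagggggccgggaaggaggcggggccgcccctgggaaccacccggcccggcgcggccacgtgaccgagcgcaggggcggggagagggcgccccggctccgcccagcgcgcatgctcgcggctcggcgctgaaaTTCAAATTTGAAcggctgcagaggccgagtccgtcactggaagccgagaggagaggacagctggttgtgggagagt
RRM2, chr2:10122489-10122788, plus strand: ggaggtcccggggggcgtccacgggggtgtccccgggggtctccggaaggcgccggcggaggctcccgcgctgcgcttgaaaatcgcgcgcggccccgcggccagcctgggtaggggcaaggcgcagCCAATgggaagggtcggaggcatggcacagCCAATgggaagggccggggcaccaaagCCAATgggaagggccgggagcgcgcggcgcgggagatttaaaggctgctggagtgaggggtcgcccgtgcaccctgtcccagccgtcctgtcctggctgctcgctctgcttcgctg
In MKI67 and CDCA8, a subunit of the passenger complex, a CHR at -29 and -23 runs into a CCAAT box and shares 1 base with it. CDC20 holds CHR matches at -178 and -65, the second followed by a CCAAT box at -55. TOP2A has CHR matches at -194 and -151 among 4 CCAAT boxes. ANLN carries 2 CHR matches back to back at -26 and -20 and no CCAAT box, and its low level in Anillin libraries is that of the siRNA's own target. RRM2, a gene of nucleotide supply, has 3 CCAAT boxes and no CHR, and it changed by -2.45 ± 0.16.

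Genes of DNA replication were lower as well. All 18 tested genes of origin licensing and the replicative helicase were lower (median -1.11). ORC6, a subunit of the origin recognition complex, had 0.991, 0.979 and 1.09 RPKM in Anillin 4N, against 4.90, 4.31 and 4.41 RPKM in control 4N, and MCM7 of the helicase had 7.47, 7.71 and 8.30 RPKM in Anillin 4N, against 24.9, 19.6 and 23.6 RPKM in control 4N. Both groups were apart for each gene. CDC6 and CDT1, which load the helicase, changed by -1.32 ± 0.14 and -1.33, and GMNN, which blocks loading outside G1, by -0.84. At the replication fork 20 of 21 genes were lower (median -0.72), from FEN1, the nuclease of lagging-strand fragments (-1.76 ± 0.16), through PCNA (-0.65 ± 0.13) to RFC1 (-0.30). POLD4, a small subunit of polymerase delta that is removed in S phase and after damage, was the single gene called higher (0.16), and lost the call when single libraries were left out.

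The 2 versions of a ribonucleotide reductase subunit went opposite ways. RRM2, the S-phase subunit of ribonucleotide reductase, had 5.06, 4.92 and 5.43 RPKM in Anillin 4N, against 33.3, 26.6 and 31.1 RPKM in control 4N. RRM2B, the p53-induced version of the same subunit, averaged 2.10 ± 0.15 RPKM in Anillin 4N and 1.57 ± 0.08 RPKM in control 4N (SD, n = 3 each), a log2 change of 0.33 ± 0.06. All other called members of this list of 11 fell, including TK1 (-1.53 ± 0.14), TYMS (-1.36) and RRM1 (-1.31), and SAMHD1, which degrades nucleotides, was not called (0.01). Homologous recombination and Fanconi genes fell in 10 of 11 tested cases (median -0.99). Most of that list spans long loci and missed the RPKM filter, and on recovered reads 25 of 26 were lower (median -1.75), among them the recombination mediator BRCA2 (-2.29 ± 0.17), and the nuclease EXO1 (-1.79).

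Of the transcription factors above these genes 8 of 12 tested were lower and none was higher. FOXM1, the activator of late cell cycle genes, was at 4.78, 4.60 and 5.03 RPKM in Anillin 4N, against 19.6, 17.3 and 19.5 RPKM in control 4N (-1.86 ± 0.10). TFDP1, the partner of E2F factors (-1.08), E2F1 (-1.03 ± 0.14) and MYBL2, which encodes B-MYB (-0.79 ± 0.11), fell as well. E2F7, a repressor that is itself a p53 target, had 1.14, 1.12 and 1.15 RPKM in Anillin 4N, against 1.10, 1.16 and 1.17 RPKM in control 4N, with overlapping groups (-0.01 ± 0.04). RB1, the pocket protein that binds E2F, fell by 0.35 ± 0.03, to 0.415, 0.419 and 0.404 RPKM in Anillin 4N, against 0.641, 0.677 and 0.680 RPKM in control 4N. Its relative RBL2 was not called (0.01).

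**Figure D3:**
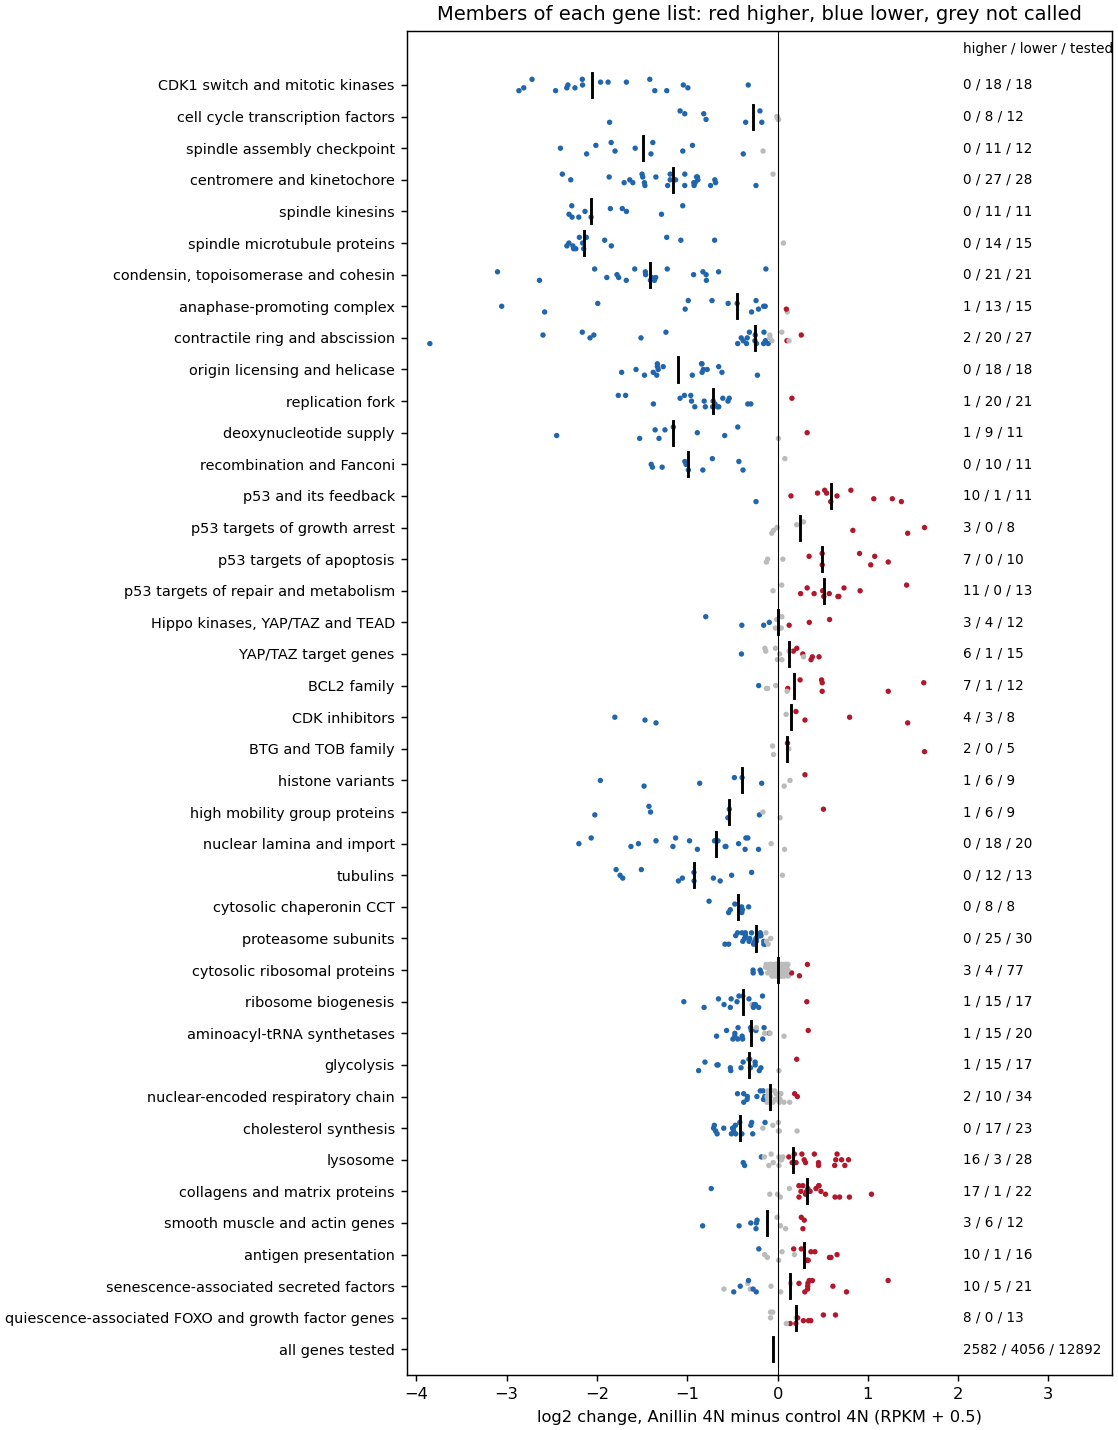
Log2 change (Anillin 4N minus control 4N, horizontal) of the tested members of each gene list with at least 5 of them; red points were called higher, blue lower and grey not called, black bars are medians, and the numbers give members higher, lower and tested. The medians run from -2.15 for spindle microtubule proteins to 0.59 for p53 and its feedback, beside -0.05 over all genes tested.

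Genes induced by p53 went the other way. In a list of p53 and its feedback 10 of 11 tested genes were higher (median 0.59) and 1 was lower. Over all genes tested the shares were 20.0% higher and 31.5% lower. MDM2, the ligase that degrades p53, was at 6.72, 6.46 and 6.28 RPKM in Anillin 4N, against 2.27, 2.52 and 2.40 RPKM in control 4N (1.27 ± 0.06, adjusted p = 1.1e-07). All Anillin 4N values exceeded all control values by a wide margin. TP53INP1, a stress-induced cofactor of p53 (1.37 ± 0.12), TRIAP1, a survival factor (1.07 ± 0.06), the nuclease AEN (0.81) and CCNG1, which restrains p53 (0.54 ± 0.07), rose as well. PIDD1, which activates caspase-2 from surplus centrosomes and so stabilises p53, rose by 0.44 ± 0.06, whereas CASP2 fell (-0.31 ± 0.05), and TP53BP1, which acts with USP28 in a separate surveillance of prolonged mitosis, was not called (0.08). SESN1, whose long gene missed the filter, was higher by 1.59 ± 0.07 on recovered reads, and MDM4, an inhibitor of p53, by 0.15 on the RPKM scale.

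Growth arrest targets were divided. CDKN1A, which encodes p21, had 84.7, 86.9 and 83.9 RPKM in Anillin 4N, against 28.4, 33.8 and 31.3 RPKM in control 4N (1.44 ± 0.06, adjusted p = 1.1e-07). BTG2, an antiproliferative adaptor of mRNA deadenylation, had 9.82, 11.0 and 10.7 RPKM in Anillin 4N, against 2.95, 3.31 and 2.94 RPKM in control 4N (1.63 ± 0.06). PLK3, a stress kinase, rose by 0.83 ± 0.05. The remaining 5 of the 8 tested genes were not called (5 of 8 were higher under quantile scaling), GADD45A among them with 23.9, 28.1 and 26.9 RPKM in Anillin 4N, against 20.8, 25.3 and 21.9 RPKM in control 4N. Those 2 ranges overlap, and the change was 0.21 ± 0.09 (adjusted p = 0.068).

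Of 10 tested p53 targets of apoptosis 7 were higher and none was lower (median 0.49). BBC3, which encodes the BH3-only killer PUMA, had 2.34, 2.37 and 2.31 RPKM in Anillin 4N, against 0.616, 0.738 and 0.797 RPKM in control 4N (1.23 ± 0.06). TP53I3, an oxidoreductase (1.08 ± 0.06), the death receptor TNFRSF10B (0.91 ± 0.05), the decoy receptor TNFRSF10D (1.03 ± 0.07), the pore former BAX (0.49 ± 0.06) and the survival gene BCL2L1 (0.49) rose, so that both killers and protectors were among the rises. PMAIP1, the BH3-only protein NOXA, was not called (-0.11 ± 0.08). Across the BCL2 family 7 of 12 tested genes were higher and 1 lower. BMF, a BH3-only protein tied to the cytoskeleton and not in the p53 lists, had 14.7, 15.8 and 15.0 RPKM in Anillin 4N, against 3.99, 5.17 and 4.70 RPKM in control 4N (1.62 ± 0.08). MCL1, a survival protein, was not called (-0.02 ± 0.06), the lower gene was BAD (-0.21), whose call was lost under quantile scaling and without single libraries, and HRK, a further BH3-only gene below the filter, was higher by 1.94 ± 0.16 on recovered reads.

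Repair and metabolic targets of p53 were higher in 11 of 13 tested cases and lower in none (median 0.51). FDXR, a mitochondrial reductase, had 7.02, 7.95 and 7.41 RPKM in Anillin 4N, against 2.38, 2.52 and 2.47 RPKM in control 4N (1.43 ± 0.06). PHLDA3, an inhibitor of AKT signalling (0.91 ± 0.06), TIGAR, a brake on glycolysis (0.68 ± 0.03), and the damage sensors XPC (0.67) and DDB2 (0.25) rose too. GDF15, a secreted stress hormone, stood at only 36.3 recovered reads on average in Anillin 4N, against 12.0 in control 4N, and was higher by 2.13 ± 0.27 on reads.

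**Figure D4:**
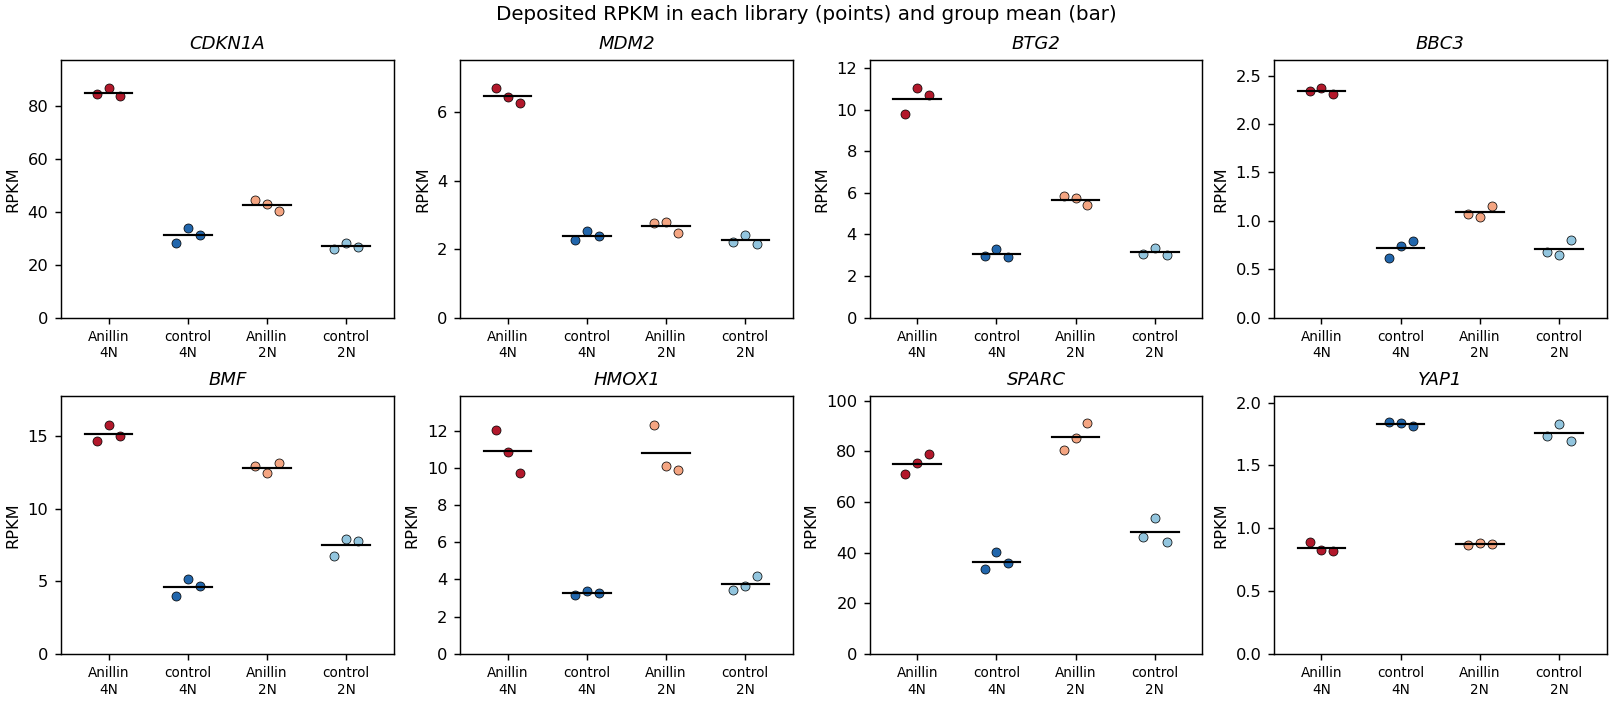
Deposited RPKM of 7 genes that rose and of YAP1, in each library (points) and as group means (bars), for Anillin 4N, control 4N, Anillin 2N and control 2N from left to right; every vertical axis starts at 0. MDM2 stands at 6.28 to 6.72 RPKM in Anillin 4N and at 2.14 to 2.79 RPKM in the 3 other groups. HMOX1, SPARC and YAP1 differ by siRNA at both DNA contents. CDKN1A, MDM2, BTG2, BBC3 and BMF were called higher at 2N too, with smaller rises than at 4N.

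The CDK inhibitors took opposite directions. Beside CDKN1A, CDKN1C (p57) rose by 0.80 ± 0.12, CDKN1B (p27) by 0.30 ± 0.05 and CDKN2B (p15) by 0.20. CDKN3, a phosphatase of cyclin-dependent kinases made late in the cycle (-1.80 ± 0.09), CDKN2D, p19 of the INK4 family (-1.47 ± 0.11), and CDKN2C, p18 (-1.35 ± 0.06), fell. CDKN2A was not called (0.09 ± 0.05). Among G1 cyclins and kinases CCND1 had 29.7, 30.9 and 36.0 RPKM in Anillin 4N, against 33.6, 29.1 and 32.5 RPKM in control 4N, with overlapping values and no call (0.02 ± 0.09). CDK2 fell to 5.69, 6.52 and 5.89 RPKM in Anillin 4N, against 15.7, 13.5 and 15.1 RPKM in control 4N (-1.22 ± 0.10). CDK4 fell by 0.24 ± 0.08 and CCNE2 by 0.35 ± 0.06, and both calls were lost under quantile scaling. CCNE2 lay below the pseudocount, at a mean of 0.0982 RPKM in Anillin 4N and 0.261 RPKM in control 4N. On recovered reads, which averaged 41.7 in Anillin 4N and 164 in control 4N, it was lower by 1.39 ± 0.18.

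The Hippo pathway, whose LATS kinases restrain the coactivators YAP and TAZ, showed 1 clear change in its effector. YAP1 had 0.886, 0.825 and 0.818 RPKM in Anillin 4N, against 1.84, 1.84 and 1.81 RPKM in control 4N (-0.80 ± 0.03), and in 2N cells 0.865, 0.878 and 0.870 RPKM after Anillin siRNA, against 1.73, 1.83 and 1.70 RPKM after control siRNA. The 6 Anillin libraries were thus low and the 6 control libraries high whatever the DNA content, and the difference between the 2 changes was -0.08 ± 0.04 (adjusted p = 0.25). WWTR1, which encodes TAZ, was not called (-0.02 ± 0.04), and LATS2 was higher on recovered reads by 0.43 ± 0.08, with 0.436, 0.456 and 0.503 RPKM in Anillin 4N, against 0.342, 0.358 and 0.352 RPKM in control 4N. Of the YAP-binding TEAD factors, TEAD3 (0.58 ± 0.04) and TEAD2 (0.35 ± 0.04) rose and TEAD1 fell (-0.15). Of 15 tested YAP/TAZ target genes 6 were higher and 1 was lower (median 0.13), beside 20.0% higher and 31.5% lower among all genes tested. CCN1 had 144, 158 and 151 RPKM in Anillin 4N, against 111, 123 and 117 RPKM in control 4N (0.37 ± 0.09). ANKRD1 was the lower one (-0.40 ± 0.10, not called after quantile scaling).

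Chromatin and nuclear envelope genes that proliferating cells make in bulk were lower. H2AZ1, the main H2A.Z gene, had 85.6, 88.3 and 92.1 RPKM in Anillin 4N, against 273, 229 and 243 RPKM in control 4N (-1.48 ± 0.12), and H2AX, the histone of break signalling, changed by -1.96 ± 0.15. Among the 9 histone variants tested 6 were lower, H3-3A was not called (0.07) and MACROH2A2 rose (0.30). Among high mobility group genes HMGB2 (-2.02 ± 0.11) and HMGN2 (-1.42 ± 0.09) fell and HMGA2, an architectural protein of embryonic and growing cells, rose (0.51 ± 0.04). Of 20 tested genes of the lamina and of nuclear import 18 were lower and none was higher (median -0.68). LMNB1, the B-type lamin whose loss is used as a sign of senescence, had 0.447, 0.476 and 0.515 RPKM in Anillin 4N, against 2.63, 2.40 and 2.52 RPKM in control 4N (-1.62 ± 0.07). LMNA was not called (0.08 ± 0.07), and KPNA2, an importin, fell most (-2.20 ± 0.09).

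Smaller falls were seen in lists for protein folding and turnover, ribosome assembly, glycolysis and sterol synthesis. All 8 subunits of the CCT chaperonin, which folds tubulin and actin, were lower (median -0.44), as were 25 of 30 tested proteasome subunits (median -0.24; 15 of 30 under quantile scaling), with none higher in either list. Of 17 ribosome biogenesis genes 15 were lower and 1 was higher, with DKC1, the pseudouridine synthase (-1.04 ± 0.10), and NCL, nucleolin (-0.81 ± 0.07), in front. The 77 cytosolic ribosomal protein genes stood apart from these, since 70 were not called, 3 were higher and 4 were lower (median 0.01). This depended on the scaling, since 44 of them were called higher and 1 lower after quantile scaling. Of 20 aminoacyl-tRNA synthetases 15 were lower and 1, QARS1, was higher (0.34). Glycolysis genes were lower in 15 of 17 cases, LDHA falling by 0.87 ± 0.08. GAPDH fell by 0.32 ± 0.08 and lost the call under quantile scaling. The nuclear-encoded respiratory chain had 10 lower and 2 higher genes of 34, with a median of -0.08 that turned to 0.04 under quantile scaling, where 10 were higher and 6 lower, and its share of lower genes was no larger than the 31.5% of all genes tested. Cholesterol synthesis was lower in 17 of 23 genes and higher in none (median -0.42), led by FDFT1, squalene synthase (-0.71). CCAAT boxes stood in 83.3% of the 18 promoter windows of that list. Copies and pseudogenes exist for ribosomal protein genes, GAPDH and HMGN2, so their reads are uncertain.

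Several lists for secretion, matrix and degradation were mostly higher, beside 20.0% higher and 31.5% lower among all genes tested. Of 22 collagen and matrix genes 17 rose and 1 fell (median 0.33). SPARC, a collagen-binding protein, had 71.1, 75.3 and 79.1 RPKM in Anillin 4N, against 33.3, 40.0 and 35.7 RPKM in control 4N (1.04 ± 0.09), and COL1A1 rose by 0.69 ± 0.07. The member that fell was THBS1, thrombospondin (-0.73 ± 0.14). Of 28 lysosomal genes 16 were higher and 3 lower, with PSAP, the saposin precursor (0.75 ± 0.08), and TPP1, a peptidase (0.71 ± 0.09), among the rises and CTSL (-0.38) among the falls. Antigen presentation genes were higher in 10 of 16 cases and lower in 1, led by HLA-B (0.66 ± 0.05), whose reads may be shared with other class I genes. Of 13 genes tied to FOXO factors and quiescence 8 were higher and none lower, among them KLF4 (0.51 ± 0.11) and PIK3IP1, an inhibitor of PI3 kinase (0.64 ± 0.10).

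Secreted factors linked to senescence did not move as a block, with 10 of 21 higher and 5 lower. For these lists too, the shares over all genes tested were 20.0% higher and 31.5% lower. ANGPTL2 (1.22 ± 0.05) and MMP2 (0.61 ± 0.06) rose. IL6, a central cytokine of that programme, had 4.05, 3.88 and 4.50 RPKM in Anillin 4N, against 6.07, 6.23 and 5.69 RPKM in control 4N (-0.49 ± 0.09), and CXCL8 was not called (-0.59 ± 0.27, adjusted p = 0.097). Of 12 smooth muscle and actin genes 6 were lower and 3 higher, SMTN at -0.83 ± 0.09 and ACTB at -0.43 among the falls and TAGLN at 0.30 among the rises. The median of that list, -0.12, turned positive under 3 of the other settings.

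The 15 largest rises among protein-coding genes held members of no list as well. HMOX1, the heme-degrading enzyme of the oxidative stress response, had 12.1, 10.9 and 9.74 RPKM in Anillin 4N, against 3.17, 3.36 and 3.26 RPKM in control 4N (1.59 ± 0.10). NOG, which encodes the BMP antagonist noggin, had 2.94, 2.89 and 2.33 RPKM in Anillin 4N, against 0.640, 0.581 and 0.788 RPKM in control 4N (1.46 ± 0.11). RRAD, a Ras-related GTPase that p53 can induce, was at 9.57, 9.52 and 14.2 RPKM in Anillin 4N, against 4.20, 3.29 and 3.67 RPKM in control 4N, and 1 Anillin 4N library stood well above the other two. LAMA5, a basement membrane laminin (1.29 ± 0.07), CORO6, a coronin (1.22 ± 0.07), PCDHB14, a clustered protocadherin (1.17 ± 0.11), and MMP19, a matrix protease (1.12 ± 0.09), completed the set. Among the largest falls outside the lists were CDCA3 (-2.63 ± 0.12), TROAP, a microtubule-associated protein of the spindle (-2.55 ± 0.11), PIMREG (-2.47 ± 0.13) and DEPDC1 (-2.46 ± 0.07).

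By class of gene, 23.8% of 8353 protein-coding genes were higher and 38.3% lower, whereas of 939 long noncoding RNAs 25.9% were higher and 11.3% lower. The median change was -0.05 in protein-coding genes and 0.10 in long noncoding RNAs. MIAT, a long intergenic RNA, had 6.37, 6.36 and 5.91 RPKM in Anillin 4N, against 1.38, 2.25 and 1.81 RPKM in control 4N (1.56 ± 0.14), and NALT1, an antisense RNA, rose by 0.97 ± 0.06. TMPO-AS1 fell by 1.86 ± 0.14. It lies opposite TMPO, which encodes a lamina-associated protein and fell by 2.06 ± 0.08, and since the counting strand is not given in the sources used here, reads of the pair cannot be told apart.

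RPKM by genomic span puts long genes low, and 3644 protein-coding genes longer than 50 kb that missed the filter could be tested on recovered reads. Of these, 1040 were higher and 737 lower in Anillin 4N. Over all 22404 genes tested on reads the shares were 21.9% higher and 22.8% lower. The largest rise was IL6R, the interleukin-6 receptor, with a mean of 207 reads per library in Anillin 4N and 54.3 in control 4N (2.51 ± 0.15 in log2 units). PDGFRA, a growth factor receptor of mesenchymal cells, was higher by 1.73 ± 0.24. POLQ, the polymerase of end joining, averaged 187 reads in Anillin 4N and 1610 in control 4N (-2.55 ± 0.14), and TICRR, a starter of replication origins, changed by -2.46 ± 0.12. CDK15, a kinase of the cyclin-dependent family (-2.82 ± 0.21), and PLCH1, a phospholipase C (-2.68 ± 0.21), fell further.

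Whether the siRNA changed 4N cells in another way than 2N cells was asked by the difference between the 2 log2 changes. That difference was positive for 636 genes (4.93%) and negative for 1383 (10.7%). Without control 4N replicate 1 the counts were 340 and 753, without Anillin 4N replicate 2 the positive count was 402, and without control 4N replicate 3 the negative count was 811. In the 2N cells alone, which share no library with the 4N comparison, 1473 genes were higher after Anillin siRNA (11.4%) and 2209 lower (17.1%). The labels do not say whether both DNA fractions were sorted from the same cultures. Of the genes higher at 4N 44.5% were also higher at 2N, and these were 77.9% of the 2N rises. Of the genes lower at 4N 46.5% were also lower at 2N, which were 85.5% of the 2N falls, and 70 genes were called in opposite directions. Over the 12892 genes the changes correlated with r = 0.652, as a description of genes that are not independent.

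Most mitotic genes were lower after Anillin siRNA at 2N too, though fewer than at 4N in some lists. At 2N 14 of 18 genes of the CDK1 switch, 11 of 11 spindle kinesins and 19 of 21 condensin, topoisomerase and cohesin genes were lower, as were 7 of 15 of the anaphase-promoting complex and 12 of 27 of the contractile ring. CDK1 was at 0.631, 0.576 and 0.519 RPKM in Anillin 2N, against 2.04, 1.38 and 1.62 RPKM in control 2N, a change of -1.01, and the difference of the changes was -1.85 ± 0.14 (adjusted p = 3.3e-05). Of the 18 genes of the CDK1 switch 16 had a more negative change at 4N, as did 20 of 21 condensin, topoisomerase and cohesin genes, 9 of 15 of the anaphase-promoting complex and 12 of 27 of the contractile ring. BIRC5 (adjusted p = 0.058) and KIF20A (adjusted p = 0.10) did not pass this test. Some mitotic genes were below the pseudocount at 2N, which shrinks their 2N changes, as NEK2 at a mean of 0.242 RPKM in Anillin 2N. On recovered reads the difference was -0.83 ± 0.19 for NEK2 (-1.56 in RPKM) and -0.68 ± 0.16 for BUB1 (-1.17). CDKN3 went from -0.88 to -0.52 and lost the call on reads. The difference was kept for CDK1 (-1.67 ± 0.15 on reads) and ORC6 (-1.18 on reads, -1.07 in RPKM). Among replication lists 6 of 18 licensing, 9 of 21 fork, 6 of 11 nucleotide supply and 8 of 11 recombination genes had a more negative change at 4N. KPNA2 changed by -2.20 at 4N and -0.26 at 2N, the second change not passing the threshold (adjusted p = 0.053), and the difference was -1.94 ± 0.12. The p53 genes were higher at 2N too, in 8 of 11 cases of the feedback list, 7 of 10 of apoptosis and 9 of 13 of repair and metabolism. Of 8 growth arrest targets 4 were higher at 2N and 1 was lower. MDM2 changed by 0.20 at 2N, with a difference of 1.07 ± 0.08, and BTG2 (0.87 ± 0.08), BMF (0.88 ± 0.12), BBC3 (0.83 ± 0.09) and CDKN1A (0.79 ± 0.09) had larger rises at 4N as well. HMOX1 rose by 1.59 at 4N and 1.40 at 2N, and the difference of 0.19 ± 0.14 did not pass the threshold (adjusted p = 0.40). A difference in either direction was called in 1 of 22 matrix, 1 of 28 lysosomal and 3 of 23 cholesterol genes, beside 15.7% of all genes tested.

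**Figure D5:**
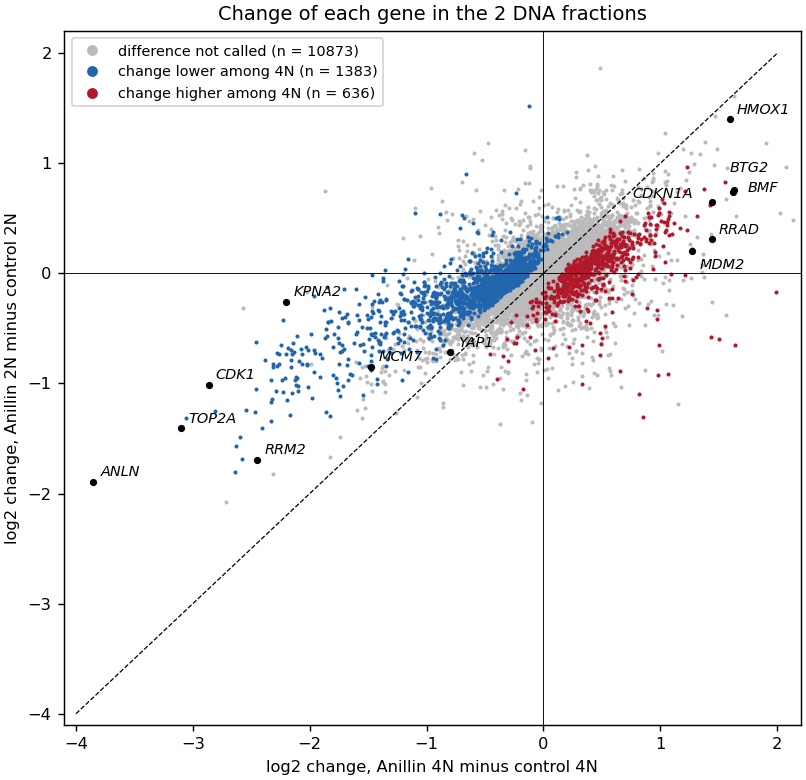
Log2 change of each of the 12892 genes tested, Anillin 4N minus control 4N (horizontal) against Anillin 2N minus control 2N (vertical); the dashed line marks equal changes. Blue points are the 1383 genes with a lower change among 4N cells, red points the 636 with a higher one; ANLN, TOP2A and CDK1 lie far to the left of the line and MDM2 and BTG2 to its right, while YAP1 and HMOX1 lie close to it.

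Set beside the control 2N cells, Anillin 4N was higher in 1815 genes (14.1%) and lower in 2039 (15.8%). These values share the Anillin 4N libraries with the main comparison. The mitotic lists were mixed there. Of the CDK1 switch 2 genes were higher and 3 lower (median 0.04), PLK1 being higher by 0.75 and BIRC5 lower (-0.87), while CDK1 (-0.04 ± 0.10) and TOP2A (-0.20 ± 0.07) were not called. Of condensin, topoisomerase and cohesin genes 9 of 21 were lower (median -0.20), of centromere and kinetochore genes 6 of 28 with 2 higher, of contractile ring genes 9 of 27 with 1 higher, and of checkpoint genes 3 of 12, ZWINT among them (-0.77). None of the 11 spindle kinesins passed the threshold (median -0.04). Of replication genes, lower calls were made in 13 of 21 of the fork list and 12 of 18 of the licensing list (median -0.53), where MCM7 fell by 0.66 ± 0.14. The p53 genes were still mostly higher, 9 of 11 in the feedback list (median 0.59) and all 13 of the repair and metabolism list. Of growth arrest targets 5 of 8 were higher and 1 was lower, with CDKN1A higher by 1.64 ± 0.06. Apoptosis targets had 7 of 10 higher and 1 lower. Lower calls outnumbered higher ones among YAP/TAZ target genes, with 3 of 15 higher and 8 lower (median -0.14). Secreted factors linked to senescence had 5 of 21 higher and 11 lower, and quiescence genes 3 of 13 higher and 4 lower. Matrix genes had 11 of 22 higher and 2 lower.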

How the data were processed

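RNA was sequenced from sorted RPE1 cells in 12 libraries of 4 groups. The authors deposited 1 table of RPKM values per gene, for which the submitters' processing notes name hg19 as the build and, as tools, TopHat2, edgeR and CASAVA 1.8.2. Neither the strand used in counting nor the annotation is stated in the sources, and the labels name both ribosomal depletion and an mRNA kit. Whole reads were recovered from the deposited RPKM values, with a tolerance of 0.01 reads, for all 38571 genes above 0 (100%): 29238 with the gene's genomic span as its length and 9333 through a common divisor of the gene's values. The totals were scaled by the authors, by 1.01 to 1.04 in Anillin 4N and 0.951 to 0.962 in control 4N libraries. The recovered reads are per gene and carry no molecular identifiers.

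Genes with at least 0.5 RPKM in 3 or more libraries were fitted as log2(RPKM + 0.5) with limma-trend (limma 3.58.1, R 4.3.3), with 1 mean per group over all 12 libraries, Benjamini-Hochberg adjustment over all genes tested and a threshold of 0.05. Errors of log2 changes are standard errors. The tests were checked on simulated data. Alternatives were pseudocounts of 0.1 and 1, no filter, quantile scaling, a fit of the 2 groups only, limma-voom on the recovered reads (at least 10 in 3 libraries) and leaving out each library. Symbols were found for 52338 of 57773 identifiers, and gene types and spans came from GENCODE 29. Named were the 15 largest rises and falls among called protein-coding genes, members of the gene lists and of their exceptions, the leading noncoding and long genes and the largest differences between 4N and 2N. The members and lists were chosen with earlier results of these data known. Nothing in the labels pairs the replicates, which the design text calls biological. Figures were drawn with matplotlib 3.10.9.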

Additional observations from a re-analysis of the deposited data

Results flagged for a closer look

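The siRNA effect differed between the 4N and the 2N cells, tested as the difference of the 2 log2 changes, in 636 genes upward (4.93%) and 1383 genes downward (10.7%). Chosen by size, the downward differences were led by ANLN (-1.96), KPNA2 (-1.94), CDK1 (-1.85), CDCA8 (-1.84) and FAM83D (-1.80), and the upward ones by RRAD (1.13), MDM2 (1.07), BMF (0.88), BTG2 (0.87) and BBC3 (0.83), all past the threshold of the limma-trend fit. FAM83D recruits a kinase to the spindle. The RRAD difference had an adjusted p of 0.047 and rests on an Anillin 4N group in which 1 library stood at 14.2 RPKM and the other two at 9.52 and 9.57 RPKM. Groups of 3 libraries were not searched for single outlying values.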

How the results depend on the processing

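No pairing was used, because the library numbers 10 to 21 are all distinct and the labels give no shared replicate number. Distinct numbers do not show that the 2N and 4N fractions came from separate cultures, and the test of their difference took the libraries as independent. Without the filter 3945 genes were higher in Anillin 4N, and on recovered reads 4914. With only the 2 groups fitted 2448 genes were higher and 3952 lower. At 2-fold, 182 genes were higher with a pseudocount of 0.1, 33 with a pseudocount of 1 and 713 on reads, and 517 were lower with a pseudocount of 0.1 and 812 on reads. Upward differences between 4N and 2N effects numbered 1469 on reads and 340 to 607 without single libraries, and downward ones 753 to 1189. List medians turned sign for the mitotic surveillance genes (-0.0229 without the filter, -0.0740 on reads), the respiratory chain (0.0382 under quantile scaling) and the smooth muscle list (0.0136 without the filter, 0.0284 under quantile scaling and 0.0306 on reads); the cause was not tested. Quantile scaling moved the median of all genes to 0.02 in log2 units. Of 201 genes recomputed under the alternatives that could give a value, 17 lost their call under at least 1 of them and none changed sign. That set was picked mainly by size of change, so it does not stand for the smaller changes. More list members outside it lost their call under quantile scaling, as in the proteasome list, where 25 lower genes became 15. RHOA, SEPTIN2, MOB1A and MYL12A, outside that set, changed sign under quantile scaling (0.04, 0.02, 0.02 and 0.0007) and lost the call. RPKM per genomic span limits long genes, and a low count in 17412742 reads limits weakly expressed ones.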
